A study of Mus musculus with 7 samples.

Results

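The genes described are 8 members of the tumour necrosis factor (TNF) family: the ligand genes Tnf, Tnfsf8, Tnfsf9, Tnfsf10, Tnfsf13b and Tnfsf14 and the receptor genes Tnfrsf1a and Tnfrsf1b. They were taken by symbol, with every probe set that carries that symbol alone, which gave 14 probe sets for 8 of the 18193 genes with such a probe set. RNA of macrophages was measured on Affymetrix mouse arrays, 3 of normal brain and 4 of GL261 tumours. The labels give GFP and F4/80 as the markers of isolation for both groups. GL261 is a mouse glioma cell line. The normal brain cells came from C57/Bl6 mice aged 8 weeks. The tumours had grown for 21 days after injection into the brains of C57/Bl6 mice that had been transplanted with GFP bone marrow. GFP marrow is stated for the tumour-bearing mice alone, whose age is not stated, and pooling of mice is not mentioned. It is therefore unknown whether the GFP gate took the same kind of cell in both groups. An effect of the tumour and a difference in which macrophages the GFP sort took cannot be told apart.

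TNF family ligands are mostly trimeric membrane proteins, and proteases release several of them as soluble factors. They bind receptors that either carry a death domain, as TNF receptor 1 does, or recruit TRAF adaptors directly, as TNF receptor 2 does, and both routes can activate NF-kB. Macrophages and microglia are a main source of TNF, and in the brain TNF family signals act on glia, endothelium and lymphocytes. Tnfsf9 encodes the ligand of the T cell costimulatory receptor CD137, Tnfsf10 the death ligand TRAIL, Tnfsf13b the B cell survival factor BAFF, Tnfsf14 the ligand LIGHT and Tnfsf8 the ligand of CD30.

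Signals were compared as log2(signal + 6), a scale that understates fold changes of dim genes, and a gene was called at a limma adjusted p under 0.05 over the 12125 genes tested. On the arrays, control probe sets for bacterial RNA set the background at 4.19 to 4.70 on this scale. Defining macrophage genes were present in both groups: all 10 on the list, among them Adgre1 (F4/80), Csf1r and Cd68, were above background. Their summed signal was 79295 to 100239 in normal brain and 68992 to 96298 in GL261 tumours. Of the 10, 1 was called higher in GL261, Mertk (log2 fold change 1.06, limma adjusted p = 0.0243), and 0 lower. Adgre1 was lower on every GL261 array but not called (-0.39, limma adjusted p = 0.0814). Gapdh probe sets at the 3' end were brighter than at the 5' end, a ratio that depends on RNA integrity. It was 2.39 to 2.43 in normal brain and 1.64 to 1.89 in GL261, without overlap. The same ratio for beta-actin was 1.43 to 1.64 in normal brain and 1.36 to 1.52 in GL261, and the groups overlapped. The part of RNA integrity in the results was not tested. Erythroid genes had summed signals of 9406 to 16064 in normal brain, 4439 in GL261 replicate 2 and 68.0 to 194 in GL261 replicates 1, 3 and 4. Both erythroid genes tested were called lower (median log2 fold change -5.12), and Hba-a1, the 1 other on the array, was not above background on any array. Endothelial genes had summed signals of 2636 to 3621 in normal brain, 1772 in GL261 replicate 2 and 379 to 638 in GL261 replicates 1, 3 and 4. Nothing in the labels says that the arrays came from separate mice, so p-values measure the spread between these arrays, which may be technical.

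Because Tnf was lower in the tumour preparations while neither of its receptors was called, the 250 bases before the start sites of these 3 genes are shown from RefSeq (GRCm38.p6). RefSeq promoter entries matched 7 of the 8 members, all but Tnfsf9. Capitals mark matches to a TATA box (TATAAA), an AP-1 site (TGANTCA), the core of an interferon-stimulated response element (GAAA repeated after 2 bases of any kind) or the kB consensus of NF-kB, searched on both strands.
Tnf, chr17:35202008-35202257, minus strand: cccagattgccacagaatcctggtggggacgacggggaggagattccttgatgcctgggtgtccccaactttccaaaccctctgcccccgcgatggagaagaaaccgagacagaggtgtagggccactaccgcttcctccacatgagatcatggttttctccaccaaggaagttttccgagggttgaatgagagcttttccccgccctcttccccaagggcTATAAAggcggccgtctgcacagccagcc
Tnfrsf1a, chr6:125349473-125349722, plus strand: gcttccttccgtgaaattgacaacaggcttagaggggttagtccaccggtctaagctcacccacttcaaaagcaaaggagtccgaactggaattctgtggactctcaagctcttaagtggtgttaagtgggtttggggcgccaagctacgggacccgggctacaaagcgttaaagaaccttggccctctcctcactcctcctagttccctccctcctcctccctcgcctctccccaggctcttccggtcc
Tnfrsf1b, chr4:145246871-145247120, minus strand: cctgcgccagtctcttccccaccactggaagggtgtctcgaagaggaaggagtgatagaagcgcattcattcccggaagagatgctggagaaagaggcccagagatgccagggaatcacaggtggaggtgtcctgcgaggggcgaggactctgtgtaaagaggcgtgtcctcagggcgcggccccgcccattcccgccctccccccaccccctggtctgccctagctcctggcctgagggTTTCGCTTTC
The Tnf window held a TATA box that began 29 bases before the start site, a motif found in 12.4% of all 32851 promoter windows of this length. The Tnfrsf1b window held a match to the interferon element core 10 bases before the start (2.98% of windows), and the Tnfrsf1a window held none of the 4 motifs. A kB match was found in the windows of 0 of the 7 members and in 7.25% of all windows. A match describes letters in a window and shows no binding.

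Of the 8 members 2 were called, both lower in GL261 (Tnf and Tnfsf9), and 0 were called higher. Of all genes tested 10.1% were called, 5.92% higher and 4.2% lower in GL261, and 2 of 8 is too small a count to set apart from this background. The members' median log2 fold change was 0.05, and that of all genes tested 0.04. All 8 members passed the filter on low values. The groups did not overlap for 3 members (Tnf, Tnfsf8 and Tnfsf9), against 23.4% of all genes tested (13.1% higher and 10.4% lower in GL261).

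**Figure D1:**
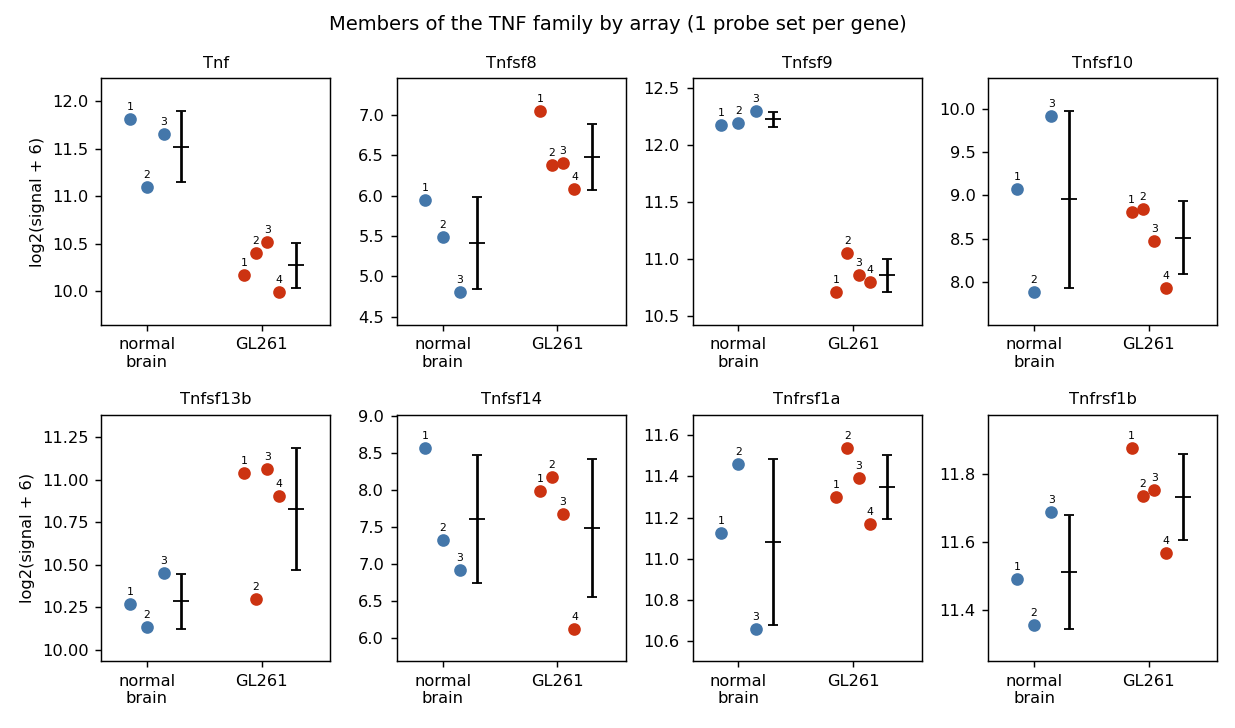
Each panel shows 1 member, with log2(signal + 6) of its brightest probe set on the vertical axis, a point for each array labelled with its replicate number, and the group mean with its SD beside the points. Tnf and Tnfsf9 are lower on all 4 GL261 arrays than on any normal brain array, Tnfsf8 is higher on all 4, and the other members overlap; each panel has its own axis range.

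Tnf, the founding cytokine of the family, had signals of 3593, 2185 and 3224 in normal brain replicates 1 to 3. In GL261 replicates 1 to 4 its signals were 1149, 1349.7, 1458 and 1011. Every GL261 array was below the lowest normal brain array, which was replicate 2. Tnf fell by 1.25 on the log2 scale (SE 0.21), from 11.52 ± 0.38 (SD, n = 3) to 10.27 ± 0.24 (SD, n = 4). This was 2.38-fold lower (95% confidence interval 1.74 to 3.25, limma adjusted p = 0.00416), and Tnf stayed called in all 7 fits without 1 array (adjusted p 0.00283 to 0.0182). In these bulk preparations fewer cells that carry a transcript and less of it per cell cannot be told apart.

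Tnfsf9, the CD137 ligand, had signals of 4638, 4696 and 5038 in normal brain. The GL261 signals were 1669, 2125, 1858 and 1775. Arrays of a group lay close together, and all 4 GL261 arrays were far below all 3 normal brain arrays. Tnfsf9 fell by 1.37 (SE 0.14), from 12.23 ± 0.06 (SD, n = 3) to 10.86 ± 0.15 (SD, n = 4). That was 2.58-fold lower (95% confidence interval 2.08 to 3.21, limma adjusted p = 0.00029), and the call held in all 7 fits without 1 array (adjusted p 0.000318 to 0.00219).

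Summed signals of neutrophil and B cell genes were lower on the same arrays as Tnf and Tnfsf9, as were those of the erythroid and endothelial genes given above. Not every gene on these lists went that way. The endothelial gene Pecam1 was higher in GL261 without overlap but not called (log2 fold change 1.23, limma adjusted p = 0.127). The neutrophil gene Cxcr2 had a log2 fold change of 0.68 and was not called (limma adjusted p = 0.525). Of 8 tested neutrophil genes 6 were called lower, with summed signals of 39778 to 51155 in normal brain and 16571 to 23057 in GL261. The median log2 fold change of the 8 was -2.36. S100a8 and S100a9, the brightest neutrophil genes in both groups, had log2 fold changes of -1.01 and -0.97. The other called neutrophil genes ran from -4.66 (Ngp) to -3.709 (Ltf), so the sums understate their falls. Beside Cxcr2, Mmp8 was not called (-0.16, limma adjusted p = 0.876). Of 8 tested B cell genes 6 were called lower (6465 to 7792 against 2257 to 3194), with a median log2 fold change of -2.64 for the 8. The called ones fell by 1.64 (Cd79b) to 3.73 (Ms4a1). Cd22, the brightest B cell gene in GL261, was not called (-0.19, limma adjusted p = 0.688), so the sums understate the other falls. Of 7 dendritic cell genes 2 were called lower (Flt3 and Dpp4) and 1 higher (Itgax), with summed signals of 17442 to 21409 and 12792 to 19628. No gene of the neutrophil, B cell and dendritic cell lists was below background on every array. Pax5 was above background on 0 of 3 normal brain and 1 of 4 GL261 arrays, Elane on 3 of 3 and 0 of 4, and neither passed the filter. The part of neutrophils, B cells and dendritic cells, and of erythroid and endothelial cells, in the lower Tnf and Tnfsf9 signals was not tested.

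Over the 7 arrays, each profile centred on its mean, the tested genes nearest to Tnf by root mean square distance were Il22ra1 (0.148), a cytokine receptor chain that was not itself called (log2 fold change -1.12, adjusted p = 0.176), the leukocyte tetraspanin Cd37 (0.183) and the stress-response gene Gadd45g (0.211). Nearest to Tnfsf9 were Cd37 again (0.123), the tight junction scaffold Tjp1 (0.137) and the solute carrier Slc46a3 (0.145). Cd37 fell by 1.22, Gadd45g fell by 1.09, Tjp1 fell by 1.33 and Slc46a3 fell by 1.55 (limma adjusted p = 0.000983, 0.00146, 0.00116 and 0.000275). The direction and size of these falls follow from how the genes were chosen, so these p-values add no separate evidence.

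Tnfsf8, the CD30 ligand, was a dim member whose groups did not overlap, yet it was not called. Its signals were 55.5, 38.7 and 21.9 in normal brain and 127, 77.7, 78.6 and 61.9 in GL261, all above background. All 4 GL261 arrays were above normal brain replicate 1, the highest of that group. The log2 fold change was 1.07 (95% confidence interval -0.05 to 2.19, adjusted p = 0.209). CD30 itself (Tnfrsf8) was at or below background on all 7 arrays and was not tested.

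Tnfsf13b (BAFF) had signals of 1226, 1117 and 1396 in normal brain. In GL261 its signals were 2102, 1252, 2137 and 1912, so that 3 arrays were above every normal brain array and replicate 2 lay among them. Its log2 fold change was 0.54 (95% confidence interval 0.08 to 1.00), which was not called (adjusted p = 0.124). Without GL261 replicate 2, whose erythroid and endothelial signals lay between those of the other GL261 arrays and those of normal brain, the value was 0.72 and the gene was called (adjusted p = 0.034), and with its probe sets averaged the value was 1.01 (adjusted p = 0.102). The other probe sets of Tnfsf13b had log2 fold changes of 0.88 and 1.61, adjusted p = 0.416 and 0.164 over the 27022 probe sets tested, of which 5.45% were called.

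Tnfsf10 (TRAIL) varied widely between normal brain arrays (SD 1.02 on the log2 scale, n = 3), with signals of 532, 230.2 and 957. Its GL261 signals, 441, 452, 350.3 and 237, lay within that range. The log2 fold change was -0.44 (95% confidence interval -1.44 to 0.55, adjusted p = 0.578), or 0.03 without normal brain replicate 3, which was the highest array. Another pair of probe sets gave log2 fold changes of 0.60 and 0.23, so the probe sets of Tnfsf10 differed in sign and none was called.

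Tnfsf14 (LIGHT) had signals of 373, 154 and 115 in normal brain and 246, 283, 197 and 63.5 in GL261. The lowest value of all was that of GL261 replicate 4 and the highest that of normal brain replicate 1, and the groups overlapped. The log2 fold change was -0.12 (95% confidence interval -1.42 to 1.18, adjusted p = 0.928), 0.36 on leaving out normal brain replicate 1 and 0.34 on leaving out GL261 replicate 4, so the arrays fix no direction for this gene. Its other probe set was above background on 1 of 3 normal brain and 2 of 4 GL261 arrays and did not pass the filter.

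The receptor Tnfrsf1a, which carries a death domain and is found on most cells, had signals of 2226, 2814 and 1612 in normal brain. In GL261 the signals were 2514, 2970.0, 2681 and 2293, all within or just above the normal brain range. Its log2 fold change was 0.27 (95% confidence interval -0.15 to 0.69, adjusted p = 0.416), and 0.06 without normal brain replicate 3 or 0.46 without normal brain replicate 2. Tnfrsf1b, the TRAF-binding receptor of leukocytes, had signals of 2871, 2612 and 3296 in normal brain and 3758, 3403, 3444 and 3029 in GL261. Only GL261 replicate 4 lay within the normal brain range. Its log2 fold change was 0.22 (95% confidence interval -0.10 to 0.54, adjusted p = 0.371). The intervals leave room for an increase of up to 1.61-fold in Tnfrsf1a and 1.46-fold in Tnfrsf1b, and for a decrease of up to 1.11-fold and 1.07-fold.

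**Figure D2:**
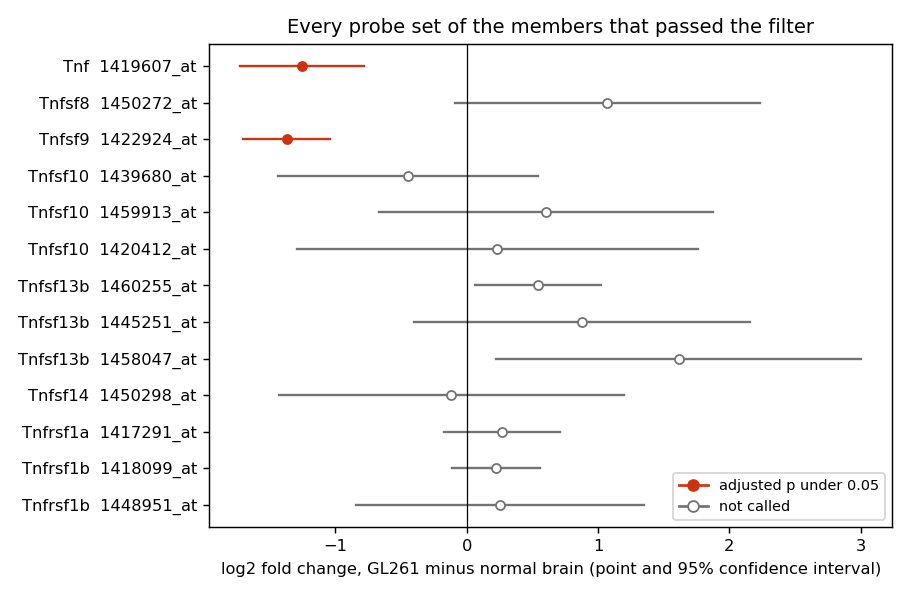
The horizontal axis is the log2 fold change of GL261 minus normal brain with its 95% confidence interval, for each of the 13 member probe sets that passed the filter, from a fit of all 27022 such probe sets. Tnf and Tnfsf9, with 1 probe set each, are the called ones; the 3 Tnfsf13b probe sets all lie above 0, and those of Tnfsf10 lie on both sides of it.

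The receptors of the member ligands came from a list of 26 other TNF receptor genes, of which 19 were tested, 1 was called higher and 2 lower (15.8%, median log2 fold change 0.33). The receptor called higher was Tnfrsf9 (CD137), which binds the Tnfsf9 product, on activated T and NK cells among others. Tnfrsf9 rose by 1.68 (SE 0.34), from 7.82 ± 0.44 (SD, n = 3) to 9.49 ± 0.39 (SD, n = 4), with no overlap between the groups (adjusted p = 0.0122). Thus the ligand gene of this pair was lower and the receptor gene higher on all GL261 arrays. Of its other probe sets, 1 was below the filter and the remaining 1, at 1.83, was not called (adjusted p = 0.0946). T and NK cell genes had summed signals of 2971 to 4331 in normal brain and 3911 to 7130 in GL261. Of 9 of them 2 were called higher, Cd8a (3.03, limma adjusted p = 0.00317) and Nkg7 (0.96, limma adjusted p = 0.0407), and 7 were not called (median of the 9 0.82). Among those not called, Cd2 and the NK cell gene Ncr1 had log2 fold changes below 0 (-0.16 and -0.57, limma adjusted p = 0.814 and 0.545). The part of T and NK cells in the Tnfrsf9 difference was not tested.

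Both receptors called lower bind BAFF. The levels of Tnfrsf13c, the BAFF receptor of B cells, were 9.43 ± 1.10 (SD, n = 3) and 6.81 ± 0.20 (SD, n = 4), and it fell by 2.62 (SE 0.50, limma adjusted p = 0.00899). Its normal brain values were 8.76, 10.70 and 8.84 on the log2 scale, and the GL261 values lay between 6.58 and 7.07. Tnfrsf13b (TACI) was at 11.06 ± 0.21 (SD, n = 3) and 10.17 ± 0.13 (SD, n = 4) and fell by 0.90 (SE 0.17, limma adjusted p = 0.00911). The plasma cell receptor Tnfrsf17 (BCMA) was also without overlap between groups but was not called (log2 fold change -1.96, adjusted p = 0.0666). The B cell genes that were lower on the same arrays are given above, and their part in these decreases was not tested.

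**Figure D3:**
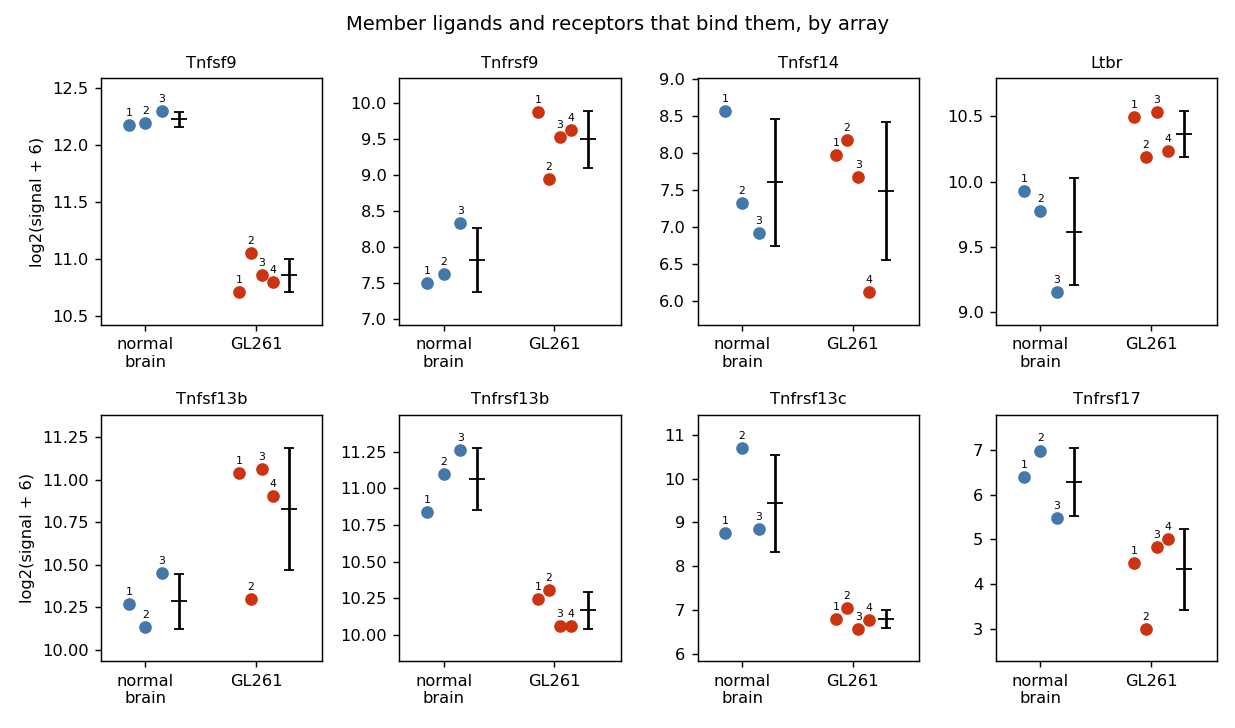
Each panel shows log2(signal + 6) of a member ligand or of a receptor that binds it, with a point for each array, its replicate number and the group mean with its SD. Tnfsf9 is lower and its receptor Tnfrsf9 higher on every GL261 array, and Tnfrsf13b, Tnfrsf13c and Tnfrsf17, the receptors of the Tnfsf13b product, are lower on every GL261 array, Tnfrsf17 without being called.

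Neither tested receptor of LIGHT was called. The lymphotoxin beta receptor gene Ltbr had a log2 fold change of 0.75 with no overlap between the groups (adjusted p = 0.0583), and Tnfrsf14 (HVEM) one of 1.05 (adjusted p = 0.277). For TRAIL, the death receptor gene Tnfrsf10b and the soluble decoy Tnfrsf11b were below the filter. The mouse decoy receptors Tnfrsf22 and Tnfrsf23 had log2 fold changes of 1.82 and 1.36 (adjusted p = 0.0747 and 0.195). Cd27, a lymphocyte receptor, had one of 1.73 (adjusted p = 0.0584). The list's count of higher receptors was 4 on leaving out normal brain replicate 1 and 2 on leaving out normal brain replicate 2, and the count of lower ones was 2 in each fit without 1 array.

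Of the 12 other family ligands 5 were tested and 0 were called (median log2 fold change 0.04). At an unadjusted p under 0.05 there were 2 of these, Tnfsf4 (OX40 ligand) with a log2 fold change of 2.01 (adjusted p = 0.063) and lymphotoxin beta (Ltb) with one of -1.26 (adjusted p = 0.104). Without normal brain replicate 2 the count of higher ligands was 1. Lymphotoxin alpha (Lta), which shares both receptors with TNF, was dim, with signals of 17.7 to 40.2 in normal brain and 1.59 to 13.6 in GL261, and was not tested.

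**Figure D4:**
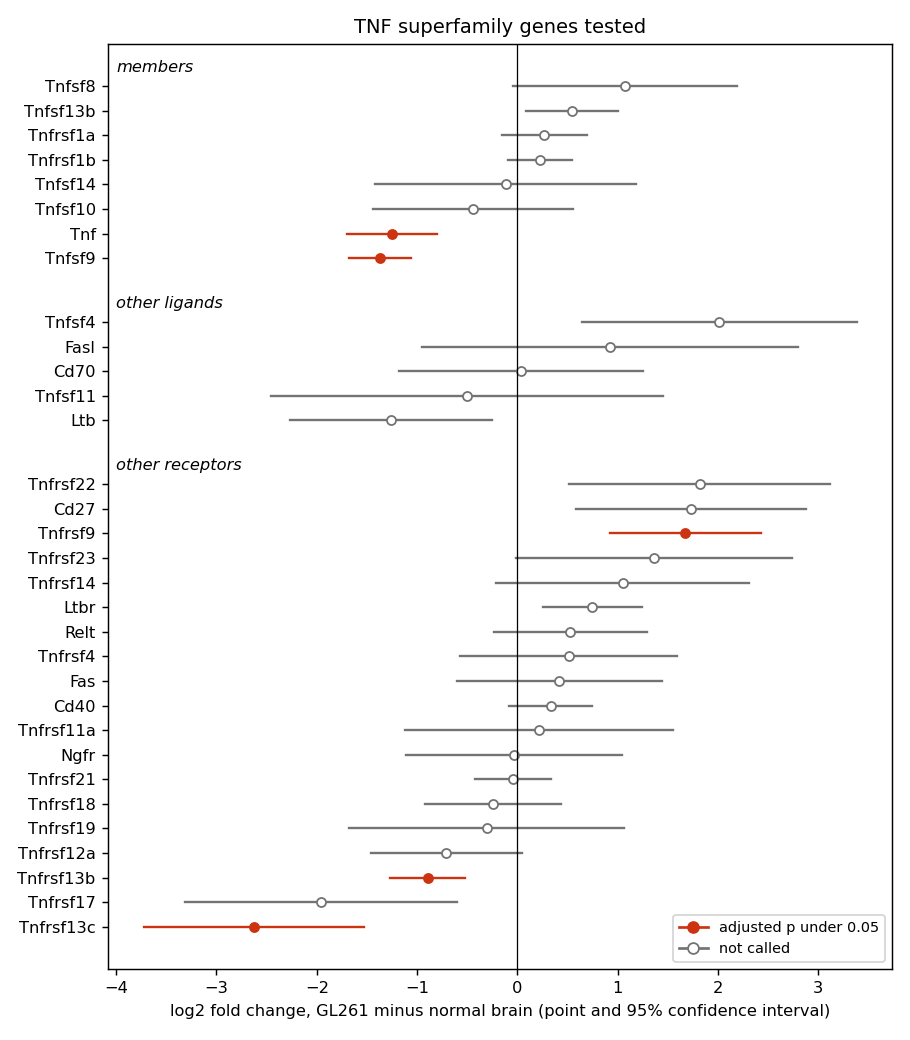
The horizontal axis gives the log2 fold change of GL261 minus normal brain with its 95% confidence interval for the 8 members, the 5 other ligands and the 19 other receptors tested. Filled red points passed an adjusted p under 0.05: Tnf, Tnfsf9, Tnfrsf13b and Tnfrsf13c below 0 and Tnfrsf9 above it.

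Of 12 tested genes that control the release and mRNA decay of TNF, 0 were called higher and 1 lower (8.33%, median -0.21). The called one was Rhbdf1, an inactive rhomboid that guides the sheddase ADAM17. The other inactive rhomboid gene on the list, Rhbdf2, had a log2 fold change of 0.56 and was not called (limma adjusted p = 0.271). Rhbdf1 fell by 2.10 (SE 0.47, limma adjusted p = 0.0176). Within GL261 it was highest on replicate 2 (7.45 on the log2 scale, against 5.77 to 7.09), the GL261 array with the highest endothelial signal. The part of endothelial or other cells in the lower Rhbdf1 signal was not tested. Without GL261 replicate 4 the count of lower genes on the list was 2. That count was 3, beside 1 higher, with quantile normalization and 2 with averaged probe sets. Adam17 itself, named for its role, was at 12.18 ± 0.13 (SD, n = 3) and 12.11 ± 0.14 (SD, n = 4), with a log2 fold change of -0.07 (adjusted p = 0.800). Of the genes not called, the mRNA decay factor Zfp36l1 (-0.63, adjusted p = 0.0754) and the protease Adam10 (-0.37, adjusted p = 0.134) had the smallest p.

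Of 28 tested receptor adaptors and death-signalling genes, 2 were called higher and 0 lower (7.14%, median 0.16). They were Ripk3 and Mlkl, the kinase and the membrane effector of necroptosis. Ripk3 was at 8.51 ± 0.44 (SD, n = 3) and 9.73 ± 0.37 (SD, n = 4) and rose by 1.21 (SE 0.31, limma adjusted p = 0.0289). Its call was lost when normal brain replicate 2 or 3 (adjusted p = 0.058 and 0.0705) or GL261 replicate 1, 2 or 3 (0.0929, 0.0526 and 0.0896) was left out. Mlkl rose by 3.34 (SE 0.79, adjusted p = 0.0222), with normal brain values of 6.26, 4.85 and 9.43 and GL261 values between 9.83 and 10.49 on the log2 scale. The Mlkl call ended on leaving out normal brain replicate 1 or 2 (adjusted p = 0.0632 and 0.0509) or GL261 replicate 1, 3 or 4 (0.0515, 0.07 and 0.0612), and its value was 4.64 without normal brain replicate 3 and 2.35 without replicate 2. The list's count was 0 on leaving out replicate 2 of normal brain or replicate 1 or 3 of GL261, and 1 on leaving out replicate 3 of normal brain or replicate 2 or 4 of GL261. Among genes not called, the kinase gene Map3k5 and the adaptor gene Traf5 had the smallest p (log2 fold changes -0.43 and -0.78, adjusted p = 0.108 and 0.109).

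Of 24 tested genes that TNF is known to induce, 3 were called higher and 4 lower, and the median was -0.14. Together 29.2% were called, against 10.1% of all genes tested, a difference that was not tested. Other stimuli induce many of these genes as well. Called lower were the monocyte chemokine Ccl2 (fell by 1.29, adjusted p = 0.00384), the neutrophil chemokine Cxcl1 (fell by 1.33, adjusted p = 0.0367), the prostaglandin synthase Ptgs2 (fell by 0.76, adjusted p = 0.0157) and the NF-kB subunit Relb (fell by 0.73, adjusted p = 0.0268). Called higher were the adhesion molecule Vcam1 (1.54, adjusted p = 0.00901), the chemokine Cxcl10 (0.92, adjusted p = 0.00525) and the mitochondrial superoxide dismutase Sod2 (0.92, adjusted p = 0.00596). Cxcl10, also a target of interferons, was at 11.27 ± 0.22 (SD, n = 3) and 12.20 ± 0.18 (SD, n = 4), and Ccl2 at 13.44 ± 0.17 (SD, n = 3) and 12.16 ± 0.42 (SD, n = 4). The NF-kB feedback genes Tnfaip3 and Nfkbia, named for their role, had log2 fold changes of -0.46 and -0.60 and were not called (adjusted p = 0.0907 and 0.106). Of the genes not called, Gadd45b (-0.63, adjusted p = 0.0563) and Csf1 (1.08, adjusted p = 0.0645) had the smallest p.

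Other probe sets of Vcam1 gave larger log2 fold changes (2.77 and 4.97, both called), and those of Sod2 ran from 0.38 to 1.10, of which 1 of 3 was called. Another pair for Cxcl1 and 1 more for Ptgs2 pointed the same way as those above but were not called. Ccl2, Vcam1, Cxcl10 and Sod2 stayed called in all fits without 1 array. Ptgs2 lost its call without normal brain replicate 3 (adjusted p = 0.0538). Relb lost it when replicate 1 or 2 of normal brain (adjusted p = 0.064 and 0.0587) or replicate 1, 3 or 4 of GL261 (0.0723, 0.0703 and 0.056) was left out. Cxcl1 lost it on leaving out normal brain replicate 1 or 3 (adjusted p = 0.0702 and 0.118) or any 1 GL261 array (replicates 1 to 4, 0.0866, 0.0552, 0.0899 and 0.0673). The count of lower targets was 2 to 3 in fits without 1 array, and 2 of them without GL261 replicate 1 or 3. Of 7 tested endothelial genes 4 were called lower (summed signals of 2636 to 3621 in normal brain and 379 to 1772 in GL261), and of 7 genes of oligodendrocyte precursors and glioma cells 4 were called higher (288 to 660 and 1098 to 1934). The part of these cells, and of the neutrophils given above, in the target genes was not tested.

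**Figure D5:**
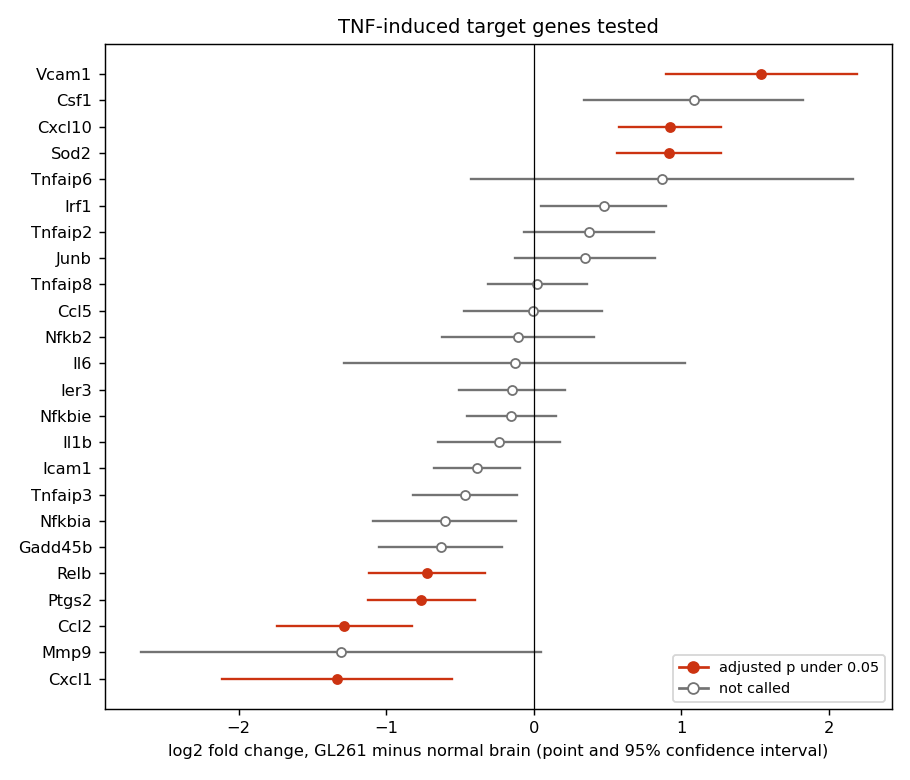
The horizontal axis gives the log2 fold change of GL261 minus normal brain with its 95% confidence interval for the 24 TNF-induced genes tested, ordered by size. The 3 red points above 0 are Vcam1, Cxcl10 and Sod2, and the 4 below it are Relb, Ptgs2, Ccl2 and Cxcl1.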

How the data were processed

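The authors deposited linear MAS5 signal intensities, 1 per probe set and array, made with MAS5 per the submitters' processing notes. Neither a MAS5 version nor a genome build is given in the sources used here. The deposited intensities had a mean of about 500 on every array without the lowest and highest 2%, so they were used unscaled. Values were analysed as log2(signal + 6), 6 being the 20th percentile. Each gene was represented by its probe set with 1 symbol and the highest mean. Genes above the 40th percentile of probe set means (4.93) were tested with limma 3.58.1 in R 4.3.3, two-sided, with variances that follow the signal and Benjamini-Hochberg adjustment over 12125 genes. Other probe sets were read from a fit of all 27022 probe sets above that level. Background was the 95th percentile of 27 Bacillus control probe sets on each array. Figures used Python 3.11.15 and matplotlib 3.10.9.

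The members, gene lists and tests were chosen with earlier results of these data known. Every member was named. From each list the called genes, up to 6 in each direction, were named, with receptors or ligands of a member and the 2 genes with the smallest p among those not called. For each called member the 3 nearest profiles were named, leaving out clone and predicted names. Adam17, Rhbdf2, Tnfaip3 and Nfkbia were added for their role after their values were seen. Pecam1, Cxcr2, Cd2 and Ncr1 were named because their values went against their lists, and Cd22, S100a8 and S100a9 because their signals weigh most in the sums. The alternatives were other pseudocounts, filters, normalizations and variance models, all or averaged probe sets, the replicate number as a block, and leaving out arrays. Labels do not say what the replicate number marks, so whether it pairs arrays is unknown. The procedure was tested on simulated data. Positions are given for promoter windows alone.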

Additional observations from a re-analysis of the deposited data

Results flagged for a closer look

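A dim second probe set of Tnfrsf1b had 1 GL261 array far from the others. On it replicate 1 was at 6.10 on the log2 scale and the other 3 GL261 arrays were at 6.45 to 6.48, so that the gap was 0.927 of the group's range, above Dixon's critical value for 4 arrays. Of 27 such sets of values, 1 was singled out, and chance alone singles out about 1 in 20. The bright probe set of Tnfrsf1b, from which its result comes, had no such array.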

How the results depend on the processing

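Tnf and Tnfsf9 kept their direction and their call in all 18 alternatives (log2 fold changes -1.46 to -1.11, adjusted p 0.00205 to 0.0418, and -1.46 to -1.32, adjusted p 9.94e-05 to 0.0118), and the count of called members stayed within 1.5 times of 2. The number of genes called was 810 with median centring, 455 with variances that do not follow the signal, and 542 to 1171 in fits without 1 array, against 1227; the cause was not tested. Tnfsf14, not called in any setting, was at 0.34 with the replicate block, 0.023 with averaged probe sets, 0.13 without normal brain replicate 1 and GL261 replicate 2 together, and -0.46 to 0.36 in fits without 1 array. Tnfsf10, also never called, was at 0.13 with averaged probe sets and -0.98 to 0.034 in fits without 1 array, and Tnfsf13b was at 0.46 to 0.72 in the latter and at 1.01 with averaged probe sets (adjusted p = 0.102).

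Arrays with the same replicate number did not deviate together (correlations 0.08, -0.01 and 0.03 across genes), and in 2 of 3 pairs both arrays correlated best with their own number. With the replicate block 1004 genes were called, and Tnf and Tnfsf9 stayed called, while Relb and Cxcl1 did not (adjusted p = 0.0793 and 0.0776), and 4 genes of release and mRNA control were called lower. With variances that do not follow the signal Ripk3, Mlkl, Relb, Vcam1, Cxcl1 and Ptgs2 lost their calls (adjusted p = 0.0582 to 0.0947). Averaging probe sets ended the calls of Tnfrsf9 and Sod2 (adjusted p = 0.0549 and 0.0825), and median centring those of Relb and Ptgs2 (adjusted p = 0.0678 and 0.133). The count of lower target genes was 8 under quantile normalization, 2 with median centring and 1 with variances that do not follow the signal. Under quantile normalization or pseudocount 50 there were 2 higher receptors, and under quantile normalization, the block or averaged probe sets 1 lower adaptor or death gene. The widest intervals were those of Tnfsf14 and Tnfsf8.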

Other observations

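Tnfrsf25 (death receptor 3), a receptor of lymphocytes, stood out among the family genes that were too dim on average to be tested. It is named because of its values. Its signals were 80.2, 30.8 and 177 in normal brain and 3.28, 1.01, 0.979 and 1.97 in GL261, at or below background on all 4 of those arrays. Normal brain was at least 4.10-fold higher than the GL261 background, a bound that leaves out the spread between arrays. In the fit without a filter the gene was called (limma adjusted p = 0.00844).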
